A study of Mus musculus with 6 samples.

Results

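Foxc1, Foxc2, Foxd1, Foxd2, Foxf1, Foxf2, Foxp1, Foxp2 and Foxp4 encode forkhead transcription factors, and they were 9 of the 46983 genes in the deposited count table. They were chosen by name: a gene was included when its Ensembl identifier mapped to 1 of these symbols in GENCODE mouse release M21, and all 9 were found. RNA was sequenced from GFP+ cells sorted from E11.25 mouse embryos. All embryos carried the Wnt1 Cre/+ driver and the Rosa26 mTmG/+ reporter. The 3 control libraries came from embryos with BAF155 flox/+ and BAF170 flox/+, and the 3 BAF155/170-deficient libraries from embryos with BAF155 flox/flox and BAF170 flox/flox. BAF155 and BAF170, encoded by Smarcc1 and Smarcc2, are core subunits of the BAF chromatin remodelling complex. The controls were thus themselves heterozygous for both floxed alleles. Wnt1-Cre marks neural crest cells and is also active in the dorsal neural tube, and the markers given below put the makeup of the sorted cells in doubt. The comparison asks which forkhead factors differed in level between GFP+ cells of the 2 genotypes.

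Forkhead factors bind DNA through a winged-helix domain. Foxc, Foxd and Foxf genes are known as regulators of mesenchyme, including the neural crest-derived mesenchyme of the face and the outflow tract, and several of them respond to hedgehog signals there. Foxp proteins are mostly transcriptional repressors that pair with one another through a leucine zipper and recruit CtBP and NuRD corepressors, and they act in neurons, blood cells, heart and lung.

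Total counts per library were 8191219 to 11661941 in the controls and 12633319 to 19808620 in the BAF155/170-deficient group. Levels are given in CPM, counts divided by the TMM-scaled library size, and 1 count was worth 0.0474 to 0.133 CPM. By the quasi-likelihood test of edgeR, genes were called differential when the Benjamini-Hochberg adjusted p over the 13961 tested genes was at most 0.1, the log2 fold change (deficient over control) was at least 0.58 in size and the mean was at least 2 CPM. Smarcc1 was called lower (log2 fold change −0.71, SE 0.156, adjusted p = 0.0676), and Smarcc2 was not called (−0.11, adjusted p = 0.251). Counts were per whole gene, so they do not show whether the floxed exons were removed. Markers of the labelled cell type were low: Sox10, a neural crest marker, averaged 2.97 CPM, and the 20 mesenchymal crest markers summed to 73.8 to 124 CPM in control and 36.5 to 61.8 CPM in deficient libraries. The 14 macrophage markers summed to 12327 to 14299 CPM in control and 14417 to 15741 CPM in deficient libraries, and Ctss alone averaged 3824 CPM. All 14 macrophage markers had positive log2 fold changes of 0.15 to 0.25, and edgeR called 0 of them. Of the 14, 1 passed the adjusted p alone, beside 11.9% of all tested genes in either direction. Macrophage markers thus exceeded crest markers in every library, so the levels below cannot be assigned to neural crest cells. Endothelial cells can also hold Foxc and Foxf RNA. The 9 endothelial markers summed to 175 to 195 CPM in control and 200 to 212 CPM in deficient libraries, with Kdr at 183, Pecam1 at 5.58 and Cdh5 at 1.65 CPM on average, and 0 of the 4 tested were called. The part of macrophage or endothelial RNA in the levels of the members was not tested. In bulk samples such as these, fewer cells of a type and less RNA per cell cannot be told apart.

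The DNA just before the start of 3 of the genes is shown because these genes stood for the contrast in the values that follow: Foxc1 and Foxd1 had low and variable levels that were lower on average in the deficient libraries, and Foxp4 had a high and even level. The RefSeq promoter table (GRCm38.p6, 300 bases per window) matched 6 of the 9 genes. Each sequence runs 5′ to 3′ on the gene's strand, from 250 to 51 bases before the start site. Capitals mark the CCAAT box on either strand.
Foxc1, chr13:31806396-31806595, plus strand: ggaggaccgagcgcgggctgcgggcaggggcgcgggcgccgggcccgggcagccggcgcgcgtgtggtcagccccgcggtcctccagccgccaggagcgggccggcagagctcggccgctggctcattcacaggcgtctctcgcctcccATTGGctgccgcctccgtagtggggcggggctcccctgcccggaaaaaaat
Foxd1, chr13:98353995-98354194, plus strand: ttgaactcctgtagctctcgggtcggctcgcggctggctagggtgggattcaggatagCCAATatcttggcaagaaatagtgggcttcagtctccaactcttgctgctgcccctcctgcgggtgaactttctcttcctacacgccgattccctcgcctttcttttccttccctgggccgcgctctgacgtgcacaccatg
Foxp4, chr17:47924683-47924882, minus strand: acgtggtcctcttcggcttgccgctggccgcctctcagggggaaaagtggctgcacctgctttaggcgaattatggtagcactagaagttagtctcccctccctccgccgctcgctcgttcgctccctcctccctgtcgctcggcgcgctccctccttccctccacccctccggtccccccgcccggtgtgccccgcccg
The Foxc1 stretch held the box on its minus strand, at −101 from the start site, with another at 10 bases after it and outside the part shown, and the Foxd1 stretch held it on the plus strand, at −192. In all, 4 motifs were searched on both strands of the 300-base windows: CCAAT, present in 37.4% of 32534 promoters, the forkhead motif TGTTTA (13.4%), the TEAD motif GGAATG (14.6%) and the GLI motif TGGGTGGT (1.47%). None of the 4 was found in the Foxp4, Foxd2 or Foxf2 windows. The forkhead motif was present in each of the 3 Foxp1 windows, and 1 of these also held the TEAD motif, at −134. The Foxc1 window was 67.3% G and C, the Foxd1 window 57.7% and the Foxp4 window 70.3%, beside a median of 53.0% over all promoters. These matches are descriptions of the letters only.

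Levels of the 9 genes fell into separate ranges. Per kilobase of exon, Foxp4 was the highest in the controls at 15.2 CPM per kb, and Foxp1 followed at 5.38 CPM per kb. Foxc1 (0.692), Foxd1 (0.657), Foxp2 (0.638), Foxc2 (0.553), Foxd2 (0.381), Foxf2 (0.361) and Foxf1 (0.232 CPM per kb) all averaged below 1 on this scale, and neighbours in this order overlapped between control libraries. Foxp4 at 13.9 to 16.2 and Foxp1 at 4.96 to 5.74 CPM per kb did not overlap each other or any other member in the controls. Foxp1 and Foxp4 together held 84.9 to 91.7% of the counts of the 9 genes in the controls and 93.1 to 95.1% in the deficient libraries. Mean CPM was lower in the deficient group for 8 of the 9 genes, Foxp1 being the exception. Of the 6 members that were tested, 5 had a negative log2 fold change, beside 52.3% of all tested genes. These 5 include Foxp4, at −0.05, and Foxc2, which had to differ for the reason given below.

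Of the 9 genes, 6 passed the filter on low counts and were tested, and Foxd2, Foxf1 and Foxf2 did not. In the edgeR test 2 of the 6, Foxd1 and Foxp2, were called lower, where 4.88% of all tested genes were called lower. DESeq2 called the same 2 members (6.32% of all tested genes), limma-voom called Foxp2 (5.1%), and 0 were called at an adjusted p of 0.05 in edgeR (0.673%). None was called higher by these tools, where edgeR called 0.0573% of all tested genes higher. The share of all tested genes called by edgeR, 4.94% with every library, moved widely when 1 library was left out. It was 0.0%, 0.426% and 8.63% on leaving out control replicates 1, 2 and 3 in turn. It was 7.28%, 1.84% and 0.119% on leaving out deficient replicates 1, 2 and 3 in turn. Calls of members lost in this way, given below, are to be read against these shares. The groups did not overlap, and were lower in the deficient libraries, for 2 of the 6, Foxc2 and Foxp2, where 16.4% of all tested genes were in that state. The 6 log2 fold changes had a median of −1.02, beside −0.02 over every tested gene. Both that median and the count of 2 genes without overlap include Foxc2. Foxc2 passed the filter only through its control libraries and so had to differ, and both values are given as a description.

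**Figure D1:**
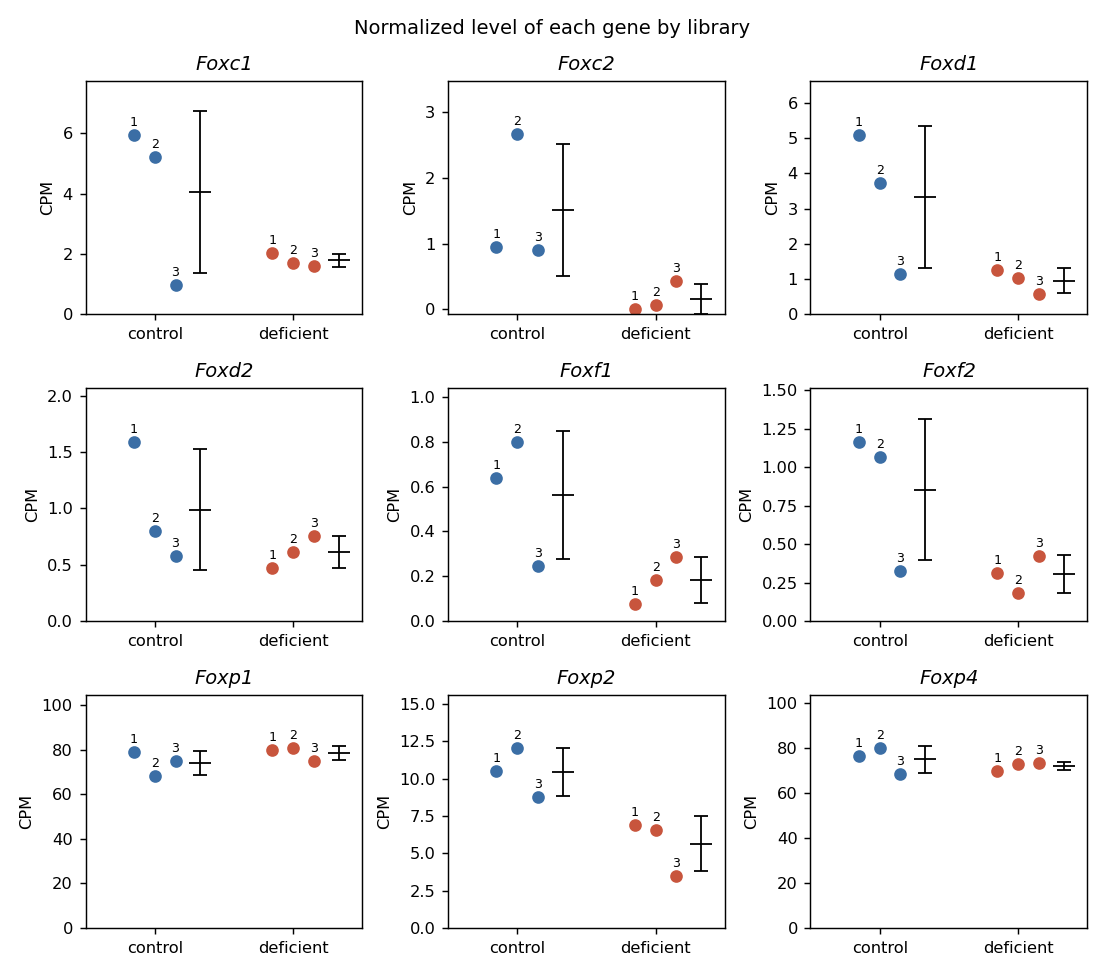
Normalized level (CPM, vertical axis, a separate scale for each gene) of the 9 forkhead genes in the 3 control and 3 BAF155/170-deficient libraries; points are libraries numbered by replicate, and the bar beside them is the mean ± SD. Control replicate 3 lies within or below the range of the deficient libraries for Foxc1, Foxd1, Foxd2, Foxf1 and Foxf2, while Foxp2 separates the groups and Foxp1 and Foxp4 lie between 68.2 and 80.5 CPM throughout.

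Foxc1 lies at chr13:31806633-31812476 (GRCm38, plus strand) and has a single exon. It is needed in periocular and cranial mesenchyme. Its level was 5.94, 5.20 and 0.982 CPM in control replicates 1, 2 and 3 and 2.03, 1.71 and 1.61 CPM in deficient replicates 1, 2 and 3. The first pair of controls was above every deficient library, and control replicate 3 was below all of them. The means were 4.04 ± 2.68 CPM (SD, n = 3) and 1.78 ± 0.221 CPM (SD, n = 3). The difference was not called (log2 fold change −1.15, SE 0.560, 95% interval −2.43 to 0.14, edgeR adjusted p = 0.226). It was called without control replicate 3 (−1.65, adjusted p = 0.0121) and with no filter on low counts (−1.09, adjusted p = 0.0217, where 3.12% of 32523 genes were called), so its call depended on that library and on that filter.

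Foxc2, at chr8:121116171-121118895 on the plus strand, is also a single-exon gene and is known for its roles in the aortic arch, palate and lymphatic vessels. It had 9, 20 and 11 counts in the controls and 0, 1 and 9 counts in the deficient libraries. These are 0.955, 2.67 and 0.901 CPM against 0, 0.0610 and 0.426 CPM. All deficient libraries were below all controls, and the deficient library with no count allows up to 0.234 CPM, the level of 3 counts. The log2 fold change was −2.86 (SE 0.815, 95% interval −4.67 to −1.06, edgeR adjusted p = 0.0829), and Foxc2 was not called because its mean of 0.835 CPM was under the minimum. Foxc2 passed the filter only through its 3 controls, with 0 deficient libraries over the cutoff, so it had to differ and these values, here and under other scalings, are a description. The size rested on single libraries: it was −5.03 (adjusted p = 0.114) without deficient replicate 3 and −2.24 without control replicate 2. Leaving out deficient replicate 2 (0.166), control replicate 1 (0.237) or control replicate 2 (0.273) also put the adjusted p above 0.1.

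Foxd1, at chr13:98354242-98359305 on the plus strand, is a single-exon gene of kidney stroma, ventral retina and facial mesenchyme. The control libraries had 5.09, 3.74 and 1.15 CPM, and the deficient libraries had 1.25, 1.04 and 0.568 CPM. Control replicate 3 was just below deficient replicate 1, so the groups overlapped, while the other two controls stood well above. Foxd1 was called lower, from 3.33 ± 2.01 CPM (SD, n = 3) to 0.952 ± 0.349 CPM (SD, n = 3), with a log2 fold change of −1.81 (SE 0.536, edgeR adjusted p = 0.0901). The call was lost when deficient replicate 2 (adjusted p = 0.169), deficient replicate 3 (0.281), control replicate 1 (0.281) or control replicate 2 (0.262) was left out, and under limma-voom (0.162). The direction was lower each time, from −1.32 without control replicate 1 to −2.25 without control replicate 3.

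The paralog Foxd2 (chr4:114906282-114908873, minus strand) had 15, 6 and 7 counts in the controls and 6, 10 and 16 in the deficient libraries. These gave 1.59, 0.801 and 0.573 CPM against 0.469, 0.610 and 0.758 CPM, and the groups overlapped. Only control replicate 1 stood out. In a fit with no filter on low counts its log2 fold change was −0.59 (SE 0.568, edgeR adjusted p = 0.591).

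Foxf1 (chr8:121084386-121088144, plus strand), known from gut and lung mesenchyme, had 6, 6 and 3 counts in the controls and 1, 3 and 6 in the deficient libraries. Foxf2 (chr13:31625816-31631403, plus strand), known from palate mesenchyme and brain pericytes, had 11, 8 and 4 counts against 4, 3 and 9. In CPM the controls were at 0.246 to 0.801 for Foxf1 and 0.327 to 1.17 for Foxf2, and the deficient libraries were at 0.0781 to 0.284 and 0.183 to 0.426. Both genes overlapped between groups, with control replicate 3 again the lowest control. Without the filter the edgeR adjusted p was 0.436 for Foxf1 and 0.315 for Foxf2, so no difference was detectable at this depth with all 6 libraries. Without control replicate 3 Foxf2 passed the filter, at −1.81 (adjusted p = 0.0754), and was not called because its mean was under the minimum level. With 2 controls and 0 deficient libraries over the cutoff, Foxf2 passed only through controls. It therefore had to differ in that fit, and the value is a description.

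Summed, the 6 Foxc, Foxd and Foxf genes reached 15.4, 14.3 and 4.18 CPM in control libraries, against 4.14, 3.78 and 4.07 CPM in deficient ones. The 2 high controls were more than 3 times above the rest, and control replicate 3 was within 0.1 CPM of deficient replicate 1. The means were 11.3 ± 6.18 and 4.0 ± 0.192 CPM (SD, n = 3 each), so the spread lay in the controls. The 20 mesenchymal crest markers were also lowest among the controls in control replicate 3, at 73.8 CPM against 104 and 124 CPM. The part of that difference in the Foxc, Foxd and Foxf levels was not tested.

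Foxp1 (chr6:98925338-99522721, minus strand) has a role in monocytes, B cells and heart. The control libraries had 78.9, 68.2 and 75.0 CPM, against 79.8, 80.5 and 74.7 CPM with BAF155/170 deleted. The groups overlapped and their means were 74.0 ± 5.43 and 78.3 ± 3.14 CPM (SD, n = 3 each). The log2 fold change was 0.08 (SE 0.0697, 95% interval −0.07 to 0.23, edgeR adjusted p = 0.499). With a correction for exon length it was 0.33 (SE 0.0926, adjusted p = 0.0694), past the adjusted p but not the fold change needed for a call. Exons of the predicted gene Gm20696 overlap Foxp1 on the same strand. Gm20696 had 1 to 11 counts per library, beside 511 to 1578 for Foxp1. How reads in the shared exons were counted is not given, so the effect on the Foxp1 counts is unknown.

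Foxp4 (chr17:47867133-47924645, minus strand), known from lung, gut and neural progenitors, was as even. Its control libraries had 76.4, 79.7 and 68.4 CPM and its deficient libraries 69.8, 72.9 and 73.2 CPM. All deficient values lay within the range of the controls. The log2 fold change was −0.05 (SE 0.0700, 95% interval −0.20 to 0.10, edgeR adjusted p = 0.674). Dispersion per gene, as a biological coefficient of variation, was 6.74% for Foxp1 and 6.78% for Foxp4, beside 40.5% for Foxd1 and 44.6% for Foxc1.

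Foxp2 (chr6:14901349-15441977, plus strand), a factor of neurons in cortex, striatum and cerebellum known for its link to speech, differed from these 2 paralogs. Its level was 10.5, 12 and 8.76 CPM in control libraries, against 6.88, 6.52 and 3.50 CPM in deficient ones. All deficient libraries were below all controls. Foxp2 was called lower, from 10.4 ± 1.63 to 5.63 ± 1.85 CPM (SD, n = 3 each), with a log2 fold change of −0.90 (SE 0.253, 95% interval −1.45 to −0.34, edgeR adjusted p = 0.0826). With the correction for exon length Foxp2 was at −0.62 (adjusted p = 0.0876). Its call was lost when deficient replicate 2 (adjusted p = 0.113), deficient replicate 3 (0.230), control replicate 1 (0.247) or control replicate 2 (0.253) was left out. Without deficient replicate 3 the log2 fold change was −0.63.

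**Figure D2:**
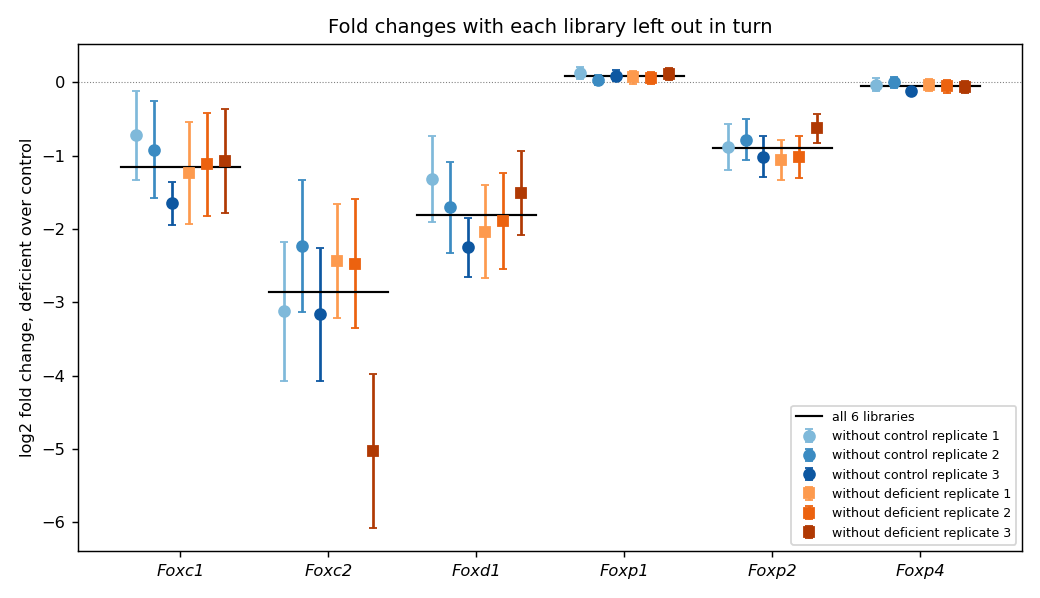
Log2 fold change (vertical axis, deficient over control) of the 6 tested forkhead genes with each library left out in turn; error bars are SE from edgeR and the black line is the value with all 6 libraries. Foxc2 moved most, to −5.03 without deficient replicate 3, Foxc1 moved to −1.65 without control replicate 3, and Foxp1 and Foxp4 stayed within 0.13 of 0.

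Ratios of paralogs inside a library do not depend on how libraries are scaled, and 6 pairs were compared with 1 count added to each gene. The log2 ratio of Foxp1 to Foxp2 was 2.83 ± 0.303 in the controls and 3.84 ± 0.481 in the deficient libraries (SD, n = 3 each; exact two-sided permutation test, p = 0.1, adjusted p = 0.3). The ratio of Foxp2 to Foxp4 was −2.84 ± 0.118 and −3.72 ± 0.562 (exact permutation test, n = 3 each, p = 0.1, adjusted p = 0.3). In these 2 pairs the groups did not overlap, and 0.1 is the smallest p that 3 libraries against 3 allow. Foxp1 to Foxp4 differed by 0.14 (exact permutation p = 0.4), with overlapping groups. The Foxc1 to Foxc2 ratio was 1.19 ± 1.22 against 3.47 ± 1.51 (exact permutation p = 0.2, n = 3 each), Foxd1 to Foxd2 was 1.52 ± 0.577 against 0.53 ± 0.847 (p = 0.2) and Foxf1 to Foxf2 was −0.49 ± 0.252 against −0.61 ± 0.666 (p = 0.8). Each of these 3 pairs overlapped between groups. At low counts such ratios depend on the count added. The Foxc1 to Foxc2 difference was 2.29 with 1 count added, 2.73 with 0.5 and 1.81 with 2. That pair also includes Foxc2, which had to differ.

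The log2 fold changes of all members moved together with the reference used for scaling, and the sign of Foxp2 and Foxp4 turned with it. The 66 embryonic markers, of crest derivatives and neural tube, summed to 261 to 479 CPM in control and 170 to 252 CPM in deficient libraries. When libraries were scaled to 34 of them, the median over every tested gene became 0.85 on the log2 scale, and when scaled to 8 mesenchymal crest markers it became 0.98. Under these scalings Foxc1 was at −0.17 and −0.05, and Foxp2 at −0.04 and 0.08, with edgeR adjusted p of 0.737 or more for all 4 values. Foxp1 was called higher at 0.93 (adjusted p = 0.0510) and 1.07 (0.0152), and Foxp4 at 0.84 (0.0686) and 0.98 (0.0231), where 59.4% and 68.5% of all tested genes were called. Measured from the median of all genes of the same scaling, no member moved by more than 0.15. A change of scaling shifts every gene and that median by about the same amount. The values measured from the median therefore had to stay close, and they are a description. On that scale Foxc1 was at −1.13 with TMM and at −1.01 and −1.03 with the marker scalings, Foxp2 at −0.88, −0.89 and −0.90, Foxp1 at 0.10, 0.08 and 0.09, and Foxp4 at −0.03, −0.0071 and −0.0069. Foxc2 passed the adjusted p but not the minimum level under both, at −1.86 (adjusted p = 0.0483) and −1.74 (0.0143). Foxd1 was called under neither: at −0.88 (0.0875) its mean was under the minimum level on that scale, and at −0.77 its adjusted p was 0.119.

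**Figure D3:**
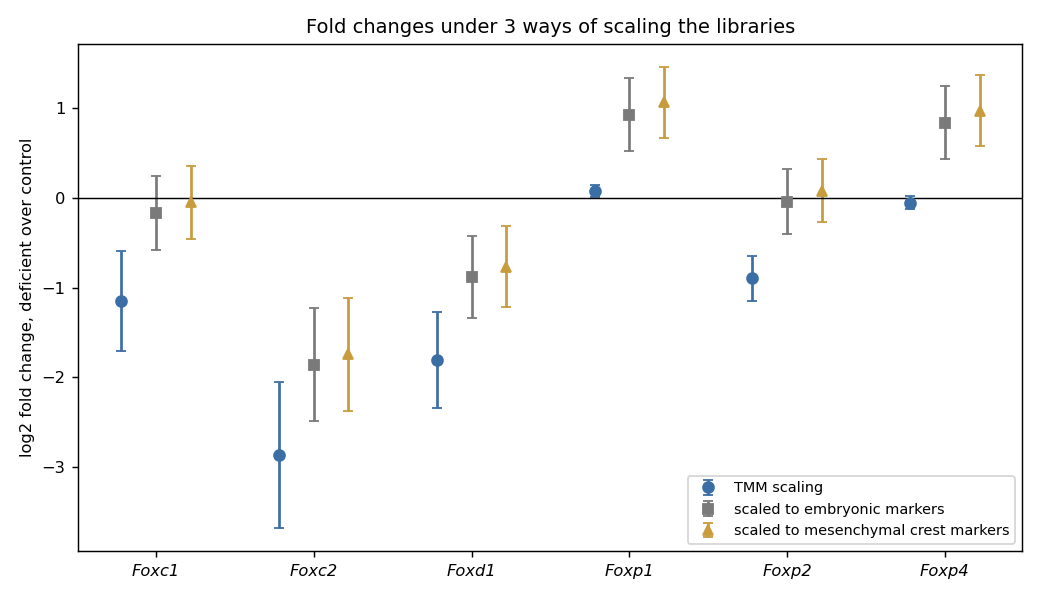
Log2 fold change (vertical axis, deficient over control, error bars SE from edgeR) of the 6 tested forkhead genes under TMM scaling, scaling to 34 embryonic markers and scaling to 8 mesenchymal crest markers. Both marker scalings raise every gene by about the same amount, so Foxp1 and Foxp4 move from 0.08 and −0.05 to between 0.84 and 1.07 and Foxp2 moves to between −0.04 and 0.08.

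Set against the mesenchymal crest marker sum of the same library, the Foxc, Foxd and Foxf sum was 14.8, 11.5 and 5.66% in the controls and 6.70, 9.06 and 11.2% in the deficient libraries. The groups overlapped on this scale, and control replicate 3 was the lowest library. Foxp2 was 10.1, 9.69 and 11.9% of that sum in the controls and 11.1, 15.6 and 9.60% in the deficient libraries, again with overlap. Foxp1 and Foxp4 together were 149, 119 and 194% against 242, 368 and 405%, and all deficient libraries were above all controls. In CPM their sum averaged 149 and 150, while the marker sum averaged 101 and 46.7 without overlap. An even level therefore had to separate upward on this scale, and these percentages are a description. Foxc2 was 0.917, 2.15 and 1.22% of the mesenchymal sum in control libraries against 0, 0.146 and 1.17%, with overlap. Against the embryonic marker sum it was 0.265, 0.557 and 0.345% against 0, 0.0322 and 0.250%, without overlap. These markers were themselves lower in the deficient libraries. The edgeR test called 7 of 15 tested mesenchymal crest markers and 4 of 10 tested sensory neuron markers lower. Their medians were −1.17 and −1.34 on the log2 scale. Fewer were called lower among autonomic (0 of 5), glial crest (1 of 6) and neural tube markers (1 of 15). The medians of these lists were −1.08, −0.65 and −0.81. The share of all tested genes called lower was 4.88%.

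**Figure D4:**
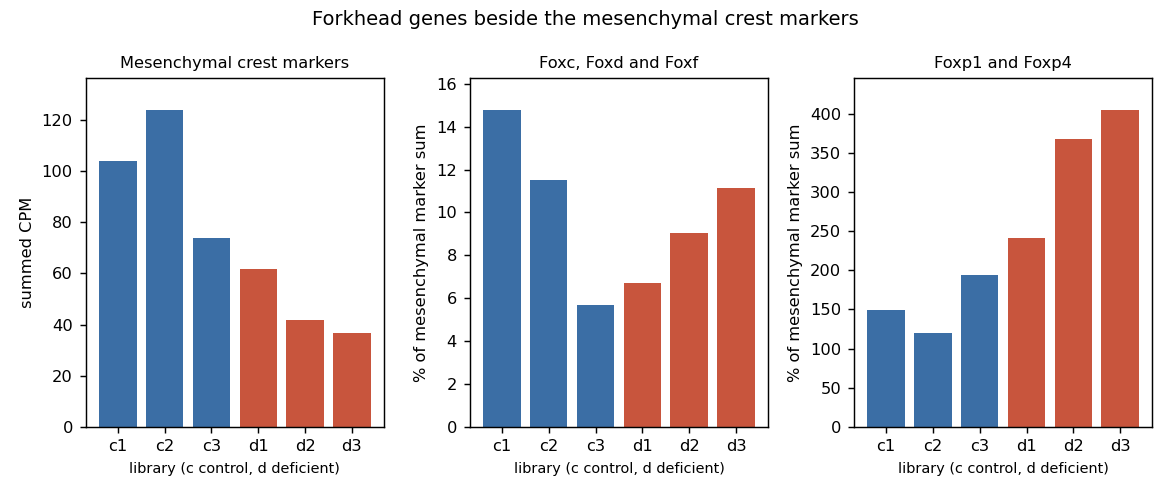
Left, summed CPM of the 20 mesenchymal crest markers in each library; middle and right, the summed counts of the 6 Foxc, Foxd and Foxf genes and of Foxp1 and Foxp4 as a percentage of the marker sum. The marker sum was lower in every deficient library, and the Foxc, Foxd and Foxf percentage overlapped between groups. The Foxp1 and Foxp4 percentage was at least 242 in the deficient libraries and at most 194 in the controls. An even level in CPM had to rise on this scale.

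Among the 35 other forkhead genes in the table, 11 passed the filter and 0 were called in edgeR, DESeq2 or limma-voom, beside the 4.94% of all tested genes that edgeR called in either direction. None of the 11 reached an unadjusted p under 0.05, and their median log2 fold change was −0.05. The lowest of the 11 was −0.68, for Foxm1, a factor of dividing cells (edgeR adjusted p = 0.272). The 5 with the most counts had log2 fold changes of −0.21 (Foxk2), 0.11 (Foxj3), 0.09 (Foxj2), 0.06 (Foxn2) and −0.19 (Foxk1). Per kilobase of exon, their control means were 5.75, 1.79, 3.22, 2.33 and 2.42 CPM per kb in that order. Foxk2 was thus close to Foxp1 at 5.38, and Foxp4 at 15.2 CPM per kb was above all of them.

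Hedgehog signals act upstream of several Foxc, Foxd and Foxf genes in facial mesenchyme, and 13 of 16 listed pathway genes were tested. All 13 had negative log2 fold changes, with −0.38 as their median, and edgeR called 2 lower, beside 52.3% and 4.88% of all tested genes. DESeq2 called 3, with Gli3 added, and limma-voom called 3, with Smo added. Kif7, a ciliary kinesin of the pathway, was at 3.40 ± 0.912 CPM in control and 1.34 ± 0.174 CPM in deficient libraries (n = 3 each, log2 fold change −1.33, edgeR adjusted p = 0.0660). Gas1, a coreceptor, was at 18.3 ± 4.87 and 8.40 ± 3.08 CPM (n = 3 each, −1.13, edgeR adjusted p = 0.0826). Both calls were lost when control replicate 1, control replicate 2 or deficient replicate 3 was left out. The Gas1 call was also lost without deficient replicate 2. The transcription factor Gli3 was not called by edgeR (−1.18, adjusted p = 0.115), although all its deficient libraries were below all controls. Gli3 was called by DESeq2 (−1.15, adjusted p = 0.00314) and by edgeR with no filter on low counts (−1.13, adjusted p = 2.0e-05), without control replicate 3 (−1.40, 0.0561) or without deficient replicate 1 (−1.57, 0.0306). edgeR did not call the target and receptor Ptch1 (−0.25, adjusted p = 0.330) or the target Gli1 (−0.12, adjusted p = 0.855). The ligand Shh was below the filter, at 0.164 to 0.801 CPM.

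All 13 listed corepressor genes of the Foxp factors were tested and 0 were called in edgeR, DESeq2 or limma-voom, and their median was −0.08 on the log2 scale. At adjusted p alone 3 were lower: the NuRD helicase Chd4 (−0.21, edgeR adjusted p = 0.0773), the deacetylase Hdac2 (−0.48, 0.0676) and Mta1 (−0.28, 0.0882), where 7.75% of all tested genes were lower by that rule. Ctbp1 was at 102 and 106 CPM in the 2 groups, and Rbbp4 at 92.9 and 87.7 CPM.

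Of 18 genes listed as targets of the 9 factors in earlier work, 14 were tested and 2 were called lower, beside 4.88% of all tested genes. Alx4, a homeobox factor of craniofacial mesenchyme, had 4.14, 12 and 5.08 CPM in control libraries, against 1.41, 1.28 and 1.61 CPM in deficient ones (log2 fold change −2.26, SE 0.404, edgeR adjusted p = 0.0483). Pdgfrb, a receptor of pericytes and mesenchyme, had 9.23, 13.5 and 6.80 against 3.98, 5.73 and 4.83 CPM (−0.99, SE 0.254, edgeR adjusted p = 0.0728). In both genes all deficient libraries were below all controls, a state held by 2 of the 14 and by 16.4% of all tested genes. In 4 of the 14, Tgfbr2, Met, Plaur and Csf1r, all deficient libraries were above all controls. Over all tested genes, 31.4% did not overlap, counting both directions. That share includes the 16.4% that were lower, so these 4 genes are to be set against the remainder only. Csf1r is also 1 of the 14 macrophage markers, which all had positive log2 fold changes. Met and Plaur also passed adjusted p alone, higher in the deficient libraries (0.43 and 0.23). By that rule 11.9% of all tested genes passed in either direction and 7.75% were lower. The median log2 fold change of the 14 tested targets was −0.06. Across the 3 linked lists the number of calls, 4, ranged from 0 without control replicate 1 or without deficient replicate 3 to 8 without control replicate 3.

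Genes with the most similar profile over the 6 libraries were sought among 12454 protein-coding genes, by the root mean square difference of centred log2 CPM. Foxp2 was nearest to Fgfr2 (0.0519) and Neo1 (0.0562), which were both called lower, at −0.87 and −0.94. Because they were picked for a profile like that of Foxp2, their similar change follows from the choice. Foxd1 was nearest to Pcdh1 (0.227) and Shox2 (0.246), and Foxc1 to Ttll7 (0.255) and Cxxc5 (0.339). Foxp1 was nearest to Pam (0.0220) and Mrpl24 (0.0288), and Foxp4 to Itfg1 (0.0278) and mt-Nd4 (0.0288). The larger distances of Foxc1 and Foxd1 go with their lower counts, 195 and 135 over all libraries.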

How the data were processed

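GFP+ cells were sorted from E11.25 embryos, with 3 embryos per genotype according to the study's methods, and strand-specific poly(A) libraries were sequenced as read pairs. The authors trimmed reads (FastQC 0.11.7, cutadapt 1.18), aligned them to GRCm38 with STAR and counted reads per gene with featureCounts, and they deposited the raw counts of 46983 Ensembl genes. The annotation release, strand setting and handling of multi-mapped reads are not given in the sources used here. Groups came from the sample titles. Identifiers were matched without their version to GENCODE M21: 46488 had a name, 37902 with the same version (Foxc1 and Foxd1 had another), and 495 without a name held 0.0558 to 0.0706% of counts.

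The fits used edgeR 4.0.16 in R 4.3.3 (TMM, filterByExpr, robust quasi-likelihood F test, group as the only term). The filter needed 0.823 CPM before TMM in 3 libraries and left 13961 genes. The thresholds for a call followed the study's methods, which used limma. Alternatives were DESeq2 1.42.0, limma-voom (limma 3.58.1), library totals, scaling to markers, other filters and thresholds, an exon length correction, a replicate block and leaving out each library. Paralog ratios were compared by exact two-sided permutation tests. The scripts were tested on simulated data. All 9 members and the gene lists were chosen with earlier results of these data known. Named genes beyond the members were the called genes of each list with the largest changes (at most 4), otherwise its most abundant genes, the most abundant markers and the nearest profiles. Others were added after their values were seen: Gli1, Gli3, Ptch1, Shh, Smo, Foxm1, Foxd3, Hdac2, Mta1, Met, Plaur, Tgfbr2, Csf1r, Sox10, Gm20696 and the genes beside the members. Intervals of fold changes are 95%. The floor of 3 counts covers counting error only.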

Additional observations from a re-analysis of the deposited data

How the results depend on the processing

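With edgeR 2 members were called, both lower. The count was 1 under limma-voom (Foxp2), 0 at an adjusted p of 0.05 (where 0.673% of all tested genes were called) and 0 to 3 with a library left out. Foxp1 and Foxp4 were called higher, and 0 members lower, under both marker scalings. The other forkhead genes went from 0 calls to 6 and 8 under the embryonic and mesenchymal scalings, all higher, where 59.4% and 68.5% of all tested genes were called, and to 1 with no filter (Foxm1, −0.63, adjusted p = 0.0245); with a library left out they had 0. The linked lists went from 4 calls among 40 tested genes to 15 and 24 under these scalings. They had 9 calls at adjusted p alone, where 11.9% of all tested genes passed. At an adjusted p of 0.05 they had 1, and with a library left out 0 to 8. Foxp4 turned to 0.014 with library totals, 0.84 with embryonic and 0.98 with mesenchymal scaling, and Foxp2 to 0.079 with mesenchymal scaling. The pairs of paralogs that did not overlap numbered 2 to 4 with a library left out, 4 without deficient replicate 3, and the Foxf1 to Foxf2 difference, −0.12 with every library, ran from −0.43 to 0.23, the latter without deficient replicate 1. The cause of these changes was not tested.

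Same-numbered replicates had correlations of 0.0284, −0.0335 and 0.293 in their deviations from the group means. Whether they shared more than a number was not tested. The numbering is itself ambiguous, since the deficient columns of the table are numbered 2 to 4 and the sample titles 1 to 3; the titles were used. With the replicate number as a block, 1164 genes (8.34% of those tested) were called in place of 689. Foxd1 (adjusted p = 0.00908) and Foxp2 (0.00701) were called again, and Foxm1 was the 1 other forkhead gene called (−0.69, adjusted p = 0.0349).

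Without control replicate 1 edgeR called 0 genes in all, so whether genes are called depended on single libraries. Counts of 25 to 60 over all libraries for Foxf1, Foxf2, Foxc2 and Foxd2 limit what could be detected for them.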

Other observations

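The values here belong to genes beside the members and to Foxd3, and they were picked after they were seen. Foxf1 and Foxc2 lie 28027 bp apart on chromosome 8. The noncoding gene Fendrr, 1276 bp from Foxf1 on the opposite strand, had 7, 6 and 7 counts in the controls and 2, 1 and 1 in the deficient libraries, all deficient libraries below all controls. Foxl1, 9045 bp from Foxc2, had 3, 3 and 1 counts against 0, 0 and 1. Mthfsd, between Foxf1 and Foxc2, had 75 to 93 counts in the controls and 97 to 167 in the deeper deficient libraries, with a log2 fold change of −0.14 (SE 0.166, edgeR adjusted p = 0.619).

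Foxf2 and Foxc1 lie 175230 bp apart on chromosome 13. Gmds, 7103 bp from Foxc1 on the opposite strand, had a log2 fold change of 0.00 (SE 0.30, edgeR adjusted p = 0.995), and Foxq1, 64840 bp from Foxf2, had 0, 0 and 0 counts in the controls and 2, 1 and 0 in the deficient libraries. Foxd3, a factor of early neural crest and a paralog of Foxd1 and Foxd2, was below the filter with 2.12, 2.40 and 0.655 CPM in control libraries, against 0.703, 0.122 and 0.663 CPM in deficient ones. Control replicate 3 was again the lowest control, and it lay below 2 of the 3 deficient libraries.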
